A study of Mus musculus with 12 samples.

Results

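The subunits of the respiratory chain were examined in mRNA libraries of tumours that 4T1 cells, a mouse mammary carcinoma line, had formed in Balb/c mice. They were chosen by gene name from the rows of the mRNA table: the Nduf a, b, c, s and v families, Sdha to Sdhd, the Uqcr genes, Cox4 to Cox8, the Atp5 genes, and the protein genes of the mitochondrial genome. Of 103 rows with such names, 7 were named as pseudogenes and 5 had a mean log2 value under 4 over the 6 libraries, which left 91 genes of the 14098 tested. These were 44 genes of complex I, 4 of complex II, 9 of complex III, 16 of complex IV and 18 of complex V; 78 are encoded in the nucleus and 13 in mitochondrial DNA. Of the genes kept, Cox4i2 lay nearest to the minimum, with a mean of 4.51. The nearest gene below it was Cox7a1, with a mean of 2.09.

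The stress group was 3 tumours of mice that were restrained for 2 hours a day on 28 consecutive days, and the control group was 3 tumours of mice that received no treatment. Both groups carried the same cells, and every tumour was collected on day 35 after inoculation and frozen on dry ice. Nothing in the labels states that the tumours of a group were taken from separate mice, so every p-value here measures the spread between libraries. Whole tumours were sequenced, so fewer cells of a kind and less RNA per cell cannot be told apart. The deposited values were already on a log2 scale, and the depth behind them is unknown. Of 9 epithelial markers, 8 were tested, with mean log2 values of 11.37, 11.07 and 11.23 in stress replicates 1 to 3, against 11.39, 11.34 and 11.19 in control replicates 1 to 3; Krt5 was below the minimum.

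As background, the respiratory chain of the inner mitochondrial membrane passes electrons from NADH and succinate to oxygen through complexes I to IV and pumps protons, and complex V, the ATP synthase, uses the proton gradient to make ATP. All of complex II is encoded in the nucleus, whereas the other complexes are assembled from subunits of both genomes. Mitochondrial genes are transcribed as long precursors from both strands of a circular genome and are then cut apart.

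No subunit passed the threshold between stressed and control tumours, and most differences were small. Of the 91 genes 0 were called at a limma adjusted p under 0.05, against 0.0355% of all genes tested (0.0213% higher and 0.0142% lower in stress). At an adjusted p under 0.1 there was 1 member, mt-Nd3, against 0.674% of all genes (0.333% higher, 0.34% lower). At an unadjusted p under 0.05 there were 11 members, or 12.1%, of which 1 was higher and 10 were lower in stress; over all genes the share was 17.4%, with 8.26% higher and 9.15% lower. Stress and control libraries were fully apart for 20 members, or 22%, 3 of them above and 17 below the control libraries, beside 24.3% of all genes, with 12.1% higher and 12.3% lower. With the directions pooled, both of these shares of the members were below those over all genes. Taken by direction, both were above those over all genes for lower values in stress, and below them for higher values.

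The direction was uneven. In stress 66 members had the lower mean and 25 the higher one, that is 72.5% lower, beside 49.4% lower and 50.6% higher over all genes. The median difference of the members was -0.06 on the log2 scale, or -3.77%, beside a median of 0.0014 over all genes; without stress replicate 2 it was -0.026, and without control replicate 1 it was -0.028. The difference lay within 0.1 in either direction for 62 members and beyond 0.25 for 5, and its standard error had a median of 0.066. For 88 members the 95% interval of the difference lay inside a log2 difference of 0.5 either way, and for 52 inside 0.25. Leaving out each library in turn kept 44 members lower and 12 higher throughout.

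The proliferation markers were lower in stress as well. All 14 were tested and all 14 had the lower mean, 12 of them (85.7%) without overlap, beside 12.3% of all genes, and their mean log2 values were 10.81, 10.90 and 10.74 in stress replicates 1 to 3, against 11.06, 11.15 and 11.09 in control replicates 1 to 3. Whether they have a part in the direction of the subunits was not tested.

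**Figure D1:**
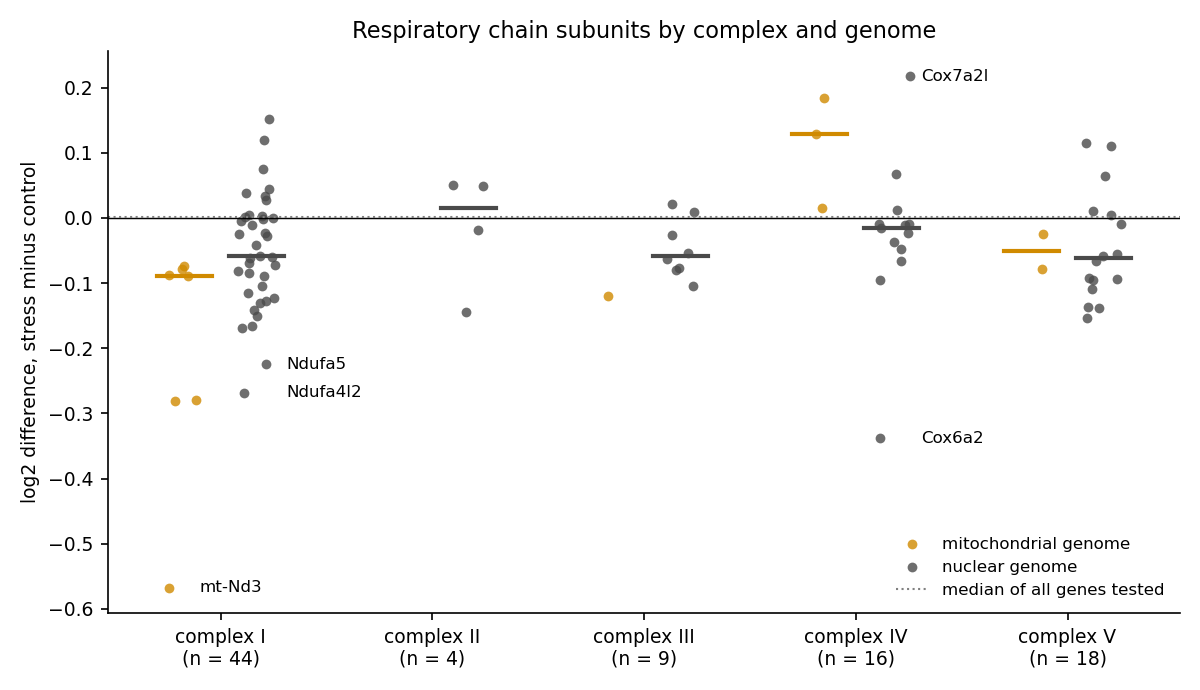
Log2 difference (stress minus control, 3 libraries each) of each of the 91 subunits, by complex and by the genome that encodes it; thick bars are medians of groups of 2 or more, and the dotted line is the median of all 14098 genes. Most points lie between -0.2 and 0.1, mt-Nd3 stands lowest at -0.57, and all 7 mitochondrially encoded subunits of complex I lie below 0 while all 3 of complex IV lie above it.

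The 13 mitochondrially encoded subunits belong to complexes I, III, IV and V. As deposited, 10 had the lower mean in stress and 3 the higher one, with a median difference of -0.08; leaving out stress replicate 3 gave -0.03, and leaving out stress replicate 2 gave -0.14. The 7 complex I subunits all had the lower mean, with a mean difference of -0.21, and 5 of the 7 without stress replicate 3, whereas the 6 others had a mean difference of 0.02. The mean over the complex I subunits was 13.68, 13.77 and 13.57 in stress replicates 1 to 3, against 13.94, 13.88 and 13.83 in control replicates 1 to 3, so the groups did not overlap.

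mt-Nd3, a small core subunit of complex I (mitochondrial genome, chrM:9459-9806, plus strand, GRCm38), led all members. Its log2 values were 9.62, 9.53 and 9.58 in stress replicates 1 to 3, against 10.24, 10.16 and 10.04 in control replicates 1 to 3. All stress libraries lay below all control libraries, and the difference was -0.57 ± 0.07 (SE; limma adjusted p = 0.0618; 0.67-fold), which missed the threshold.

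The reference holds a near-identical copy of this gene. Gm28438, annotated as an unprocessed pseudogene on the minus strand of chromosome 1 (chr1:24612775-24613119), matches the first 345 of the 348 bases of mt-Nd3 with 1 mismatch, T3C. Here the base of mt-Nd3 comes first, the position is counted from 1 at its 5′ end, and the base of the copy comes last; the position is base 9461 of the mitochondrial genome. The start of both genes is shown because this is the only base within the aligned stretch at which their reference sequences differ. Capitals mark that base.
mt-Nd3 (chrM:9459-9491, plus strand): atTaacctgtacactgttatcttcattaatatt
Gm28438 (chr1:24613087-24613119, minus strand): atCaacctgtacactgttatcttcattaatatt

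Gm28438 had log2 values of 10.88, 10.97 and 10.59 in stress replicates 1 to 3, against 10.53, 10.45 and 10.86 in control replicates 1 to 3, a difference of 0.20 ± 0.13 (SE; limma adjusted p = 0.472) in the other direction. On the linear scale the copy held 70.5%, 73.0% and 66.8% of the sum of the pair in the stress libraries, against 55.0%, 55.0% and 63.9% in the control libraries, without overlap. The log2 value of the sum was 11.38, 11.42 and 11.17 in stress, against 11.39, 11.31 and 11.51 in control. The groups overlapped, and the difference of the sum was -0.08 ± 0.08 (SE; limma adjusted p = 0.648). The gene, the copy and the sum each missed the threshold. The share held by the copy was not tested, and 24.3% of all genes had groups apart.

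Reads that fit several transcripts are divided by an estimate in kallisto, the quantifier that the submitters' notes name. The reference is the C57BL/6J genome and the tumours grew in Balb/c mice. Bases in the reads of these tumours were not examined here, and whether strain differences have a part in the division was not tested.

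**Figure D2:**
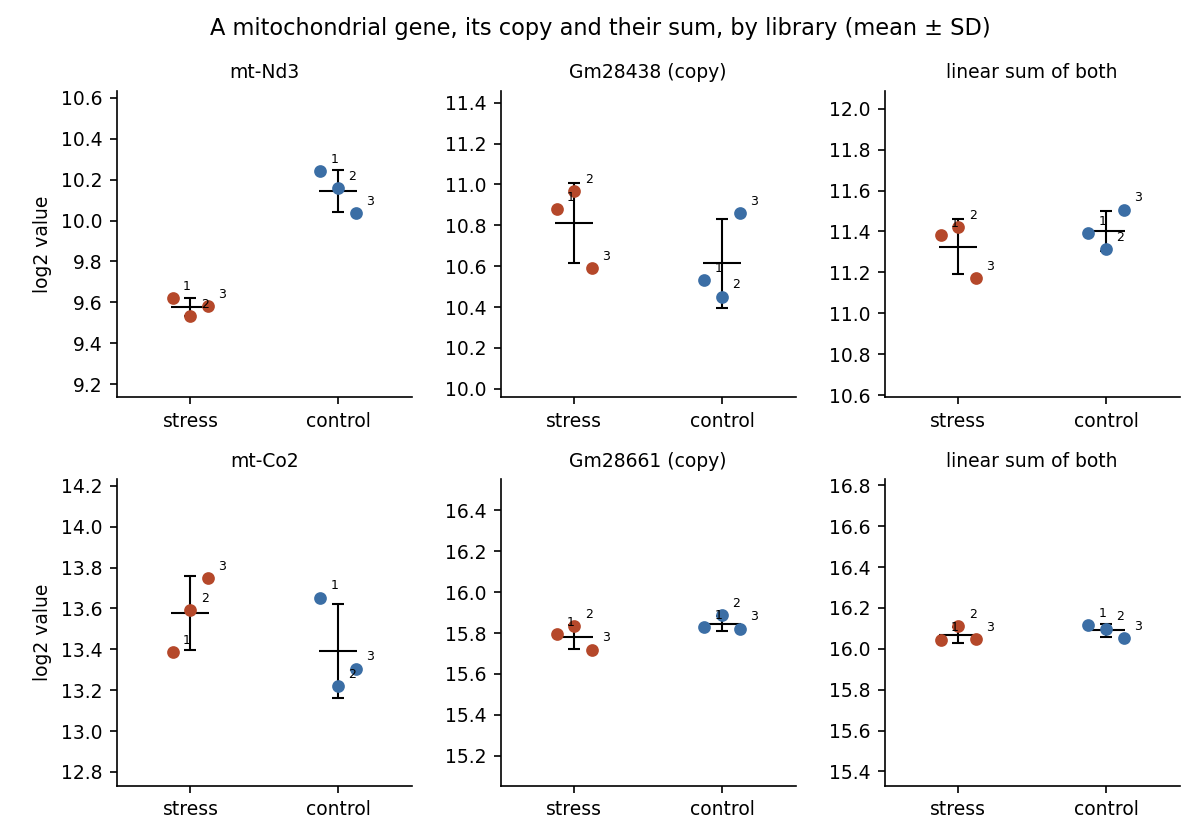
Log2 values of mt-Nd3 and mt-Co2, of their chromosome 1 copies and of the linear sums of each pair, by library (numbers are replicates; horizontal bars are means and whiskers 1 SD, n = 3 each; every axis spans the same log2 range). The groups are apart for mt-Nd3 alone (9.53 to 9.62 in stress, 10.04 to 10.24 in control) and overlap for mt-Co2, for both copies and for both sums.

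The same stretch of chromosome 1 holds copies of 5 other mitochondrial genes. Over the bases they share, the copies Gm28661 of mt-Co2 (681 bases), Gm28437 of mt-Co3 (783 bases), Gm10925 of mt-Atp6 (678 bases) and Gm28439 of mt-Nd4 (876 bases) had 0 mismatches, so a read from within these bases cannot be assigned. Gm29216 matches the last 492 bases of mt-Co1 with 6 mismatches, all within the first 13 of those bases. They are shown because every base after them is the same in both genes; capitals mark the mismatches.
mt-Co1 (chrM:6381-6423, plus strand): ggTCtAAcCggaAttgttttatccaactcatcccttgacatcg
Gm29216 (chr1:24616155-24616197, minus strand): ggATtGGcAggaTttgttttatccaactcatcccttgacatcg

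mt-Co2, a core subunit of cytochrome c oxidase, had log2 values of 13.39, 13.59 and 13.75 in stress, against 13.65, 13.22 and 13.31 in control, and its copy held 79.7% to 84.2% of the pair's sum in stress, against 81.9% to 86.4% in control. The difference of 0.18 ± 0.13 (SE) for the gene became -0.02 ± 0.06 for the sum. For mt-Co3, also a core subunit of that enzyme, the copy held 29.2% to 35.2% in stress, against 34.4% to 38.2% in control, and a difference of 0.13 ± 0.08 became 0.05 ± 0.07. The third core subunit, mt-Co1, differed by 0.02 ± 0.07 and its sum by 0.02 ± 0.07. With the copies added, the differences of these 3 genes lay within 1 SE of 0.

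The remaining copies varied far more than their genes. Gm10925, the copy of mt-Atp6, had log2 values of 9.44, 9.63 and 12.42 in stress, against 8.19, 8.41 and 7.80 in control. Its difference of 2.36 ± 0.75 (SE; limma adjusted p = 0.200) was the highest of all 14098 genes tested, and stress replicate 3 stood apart. Its share of the pair was 0.99%, 1.06% and 7.61% in stress, against 0.39%, 0.49% and 0.31% in control, and mt-Atp6 itself, the proton channel subunit of the ATP synthase, differed by -0.02 ± 0.07, while the sum differed by 0.02 ± 0.06. Gm28439, the copy of mt-Nd4, had 9.93, 10.01 and 6.72 in stress, against 6.79, 10.85 and 6.73 in control, so it was high in 2 stress libraries and 1 control library. The value of mt-Nd4 differed by -0.09 ± 0.08 with and without it.

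mt-Nd5 and mt-Nd6, core subunits of complex I on opposite strands for which the search found no copy with a mean of at least 4, came next after mt-Nd3. mt-Nd5 (chrM:11742-13565) had log2 values of 14.67, 14.82 and 14.58 in stress, against 15.03, 14.98 and 14.90 in control, a difference of -0.28 ± 0.08 (SE; limma adjusted p = 0.159). mt-Nd6 (chrM:13552-14070), the only protein gene of the other strand, had 12.50, 12.73 and 12.47 in stress, against 12.91, 12.82 and 12.81 in control, with a difference of -0.28 ± 0.08 (SE; adjusted p = 0.159). For both genes every stress library lay below every control library.
The labels do not say whether the counting used strand. As both strands are transcribed as long precursors, counting without strand would add RNA of the opposite strand anywhere along either gene. Whether this has a part in the values of mt-Nd5 and mt-Nd6 was not tested. The ends of these genes also overlap by 14 bases, which are given here because both annotated genes hold them.
Overlap of mt-Nd5 and mt-Nd6 (chrM:13552-13565, plus strand): ttaatctcgagtaa

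The other mitochondrially encoded subunits overlapped between groups. mt-Nd1 differed by -0.09 ± 0.07, mt-Nd2 by -0.08 ± 0.09 and mt-Nd4l by -0.07 ± 0.08 (SE), all core subunits of complex I. mt-Nd4l stood at 12.35, 12.28 and 12.06 in stress, against 12.37, 12.29 and 12.25 in control, and without stress replicate 3 its difference was 0.01. mt-Cytb, the cytochrome b of complex III, had 16.32, 16.36 and 16.17 in stress, against 16.48, 16.36 and 16.36 in control (-0.12 ± 0.08). mt-Atp8 of the ATP synthase, which shares 43 bases with mt-Atp6 on the same strand, differed by -0.08 ± 0.08.

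**Figure D3:**
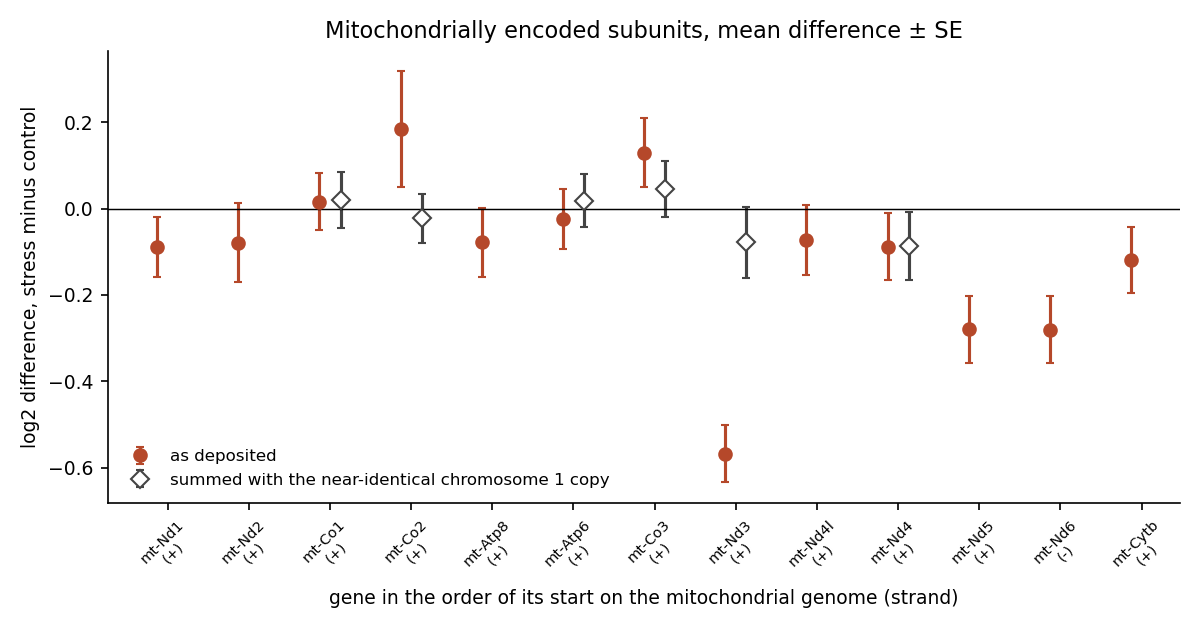
Log2 difference (stress minus control) ± SE of the 13 mitochondrially encoded subunits in genome order, as deposited (filled) and, for the 6 genes with an expressed chromosome 1 copy, for the linear sum with it (open). Summing takes mt-Nd3 to -0.08 and mt-Co2 to -0.02, while mt-Nd5 and mt-Nd6 stay at -0.28.

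With the sums in place of the single genes, all 7 complex I subunits still had the lower mean in stress, with a mean difference of -0.14. Without stress replicate 3, 5 of the 7 did, with a mean difference of -0.07. With the sums, the mean over these 7 subunits overlapped between groups, as stress replicate 2 lay just above control replicate 3. The lowest adjusted p of any member was then 0.159, for mt-Nd5 and mt-Nd6. Of the members 10 had an unadjusted p under 0.05. Within each library, the mean of the mitochondrial complex I subunits minus that of the other mitochondrial subunits was -1.40, -1.39 and -1.61 in stress, against -1.29, -1.15 and -1.27 in control. The groups did not overlap, and the difference was -0.23. After summing, the values were -1.69, -1.65 and -1.87 in stress, against -1.64, -1.58 and -1.64 in control, a difference of -0.12, also without overlap. Without stress replicate 3 it was -0.05, and stress replicate 2 lay close to control replicates 1 and 3.

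The balance of the genomes differed less. The mean of the 13 mitochondrial members minus that of the 78 nuclear members was 5.18, 5.30 and 5.10 in stress, against 5.31, 5.24 and 5.203 in control, so the groups overlapped; the difference was -0.06, and it was -0.01 without stress replicate 3, -0.03 without control replicate 1 and -0.11 without stress replicate 2. With the sums it was -0.04, and it turned to 0.02 without stress replicate 3. Shares on the linear scale were taken without correction for gene length and without the values of the copies. The mitochondrial members took 3.56%, 3.75% and 3.46% of the values in stress, against 3.93%, 3.63% and 3.74% in control. The nuclear members took 0.489%, 0.474% and 0.496% in stress, against 0.518%, 0.499% and 0.508% in control, without overlap, whereas the mean log2 value of the same genes overlapped, at 9.14, 9.12 and 9.21 in stress, against 9.22, 9.17 and 9.21 in control.

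Among the nuclear subunits of complex I, 27 of 37 had the lower mean in stress, with a median difference of -0.06. The 7 core subunits, which together hold the flavin and the iron-sulphur clusters, were close to 0: 6 were lower, with a median of -0.02, and their mean per library overlapped at 9.53, 9.56 and 9.60 in stress, against 9.60, 9.58 and 9.61 in control. The 30 accessory subunits had a median of -0.06, and 8 of them, 7 lower and 1 higher, did not overlap. At 26.7% this is near the 24.3% of all genes. Ndufa4 and Ndufa4l2 are counted among the 37 and the 30 by their names, although Ndufa4 is now assigned to complex IV.

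The accessory subunits with the smallest p were lower in stress by 9% to 14%. Ndufa5, of the peripheral arm (chr6:24518666-24528013), had log2 values of 7.61, 7.57 and 7.68 in stress, against 7.86, 7.74 and 7.94 in control, a difference of -0.22 ± 0.07 (SE; limma adjusted p = 0.201). Ndufa9, at the junction of the arms (chr6:126821721-126849136), had 8.94, 9.08 and 8.94 in stress, against 9.11, 9.16 and 9.19 in control (-0.17 ± 0.06, adjusted p = 0.231). Ndufs5, of the membrane arm, had 8.05, 8.03 and 7.99 in stress, against 8.24, 8.11 and 8.16 in control (-0.15 ± 0.06, adjusted p = 0.273).
Ndufb8, also of the membrane arm, had 9.49, 9.43 and 9.49 in stress, against 9.66, 9.54 and 9.60 in control (-0.13 ± 0.06, adjusted p = 0.287). In all 4 the stress libraries lay below the control libraries, but they were picked by their p in the same fit, which favours groups apart. Of the 37 nuclear subunits of complex I, 7 were lower without overlap, beside 12.3% of all genes. Ndufv3, of the NADH-oxidising module, was the only nuclear complex I subunit whose groups were apart in the other direction, with 9.25, 9.25 and 9.48 in stress, against 9.16, 9.17 and 9.19 in control (0.15 ± 0.07, adjusted p = 0.341); it is named after its values were seen.

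Complex II, the succinate dehydrogenase, which also works in the citric acid cycle, showed no common direction. Sdhb, its iron-sulphur subunit, had 9.33, 9.57 and 9.42 in stress, against 9.55, 9.55 and 9.65 in control (-0.15 ± 0.07, limma adjusted p = 0.349). Sdha, the flavoprotein, differed by 0.05 ± 0.09, and the membrane anchors Sdhc and Sdhd by 0.05 ± 0.06 and -0.02 ± 0.06. All 4 overlapped between groups, whereas 24.3% of all genes had groups apart.

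In complex III 7 of 9 subunits had the lower mean in stress, with a median of -0.06, and none had groups apart, beside 24.3% of all genes. Uqcr11, a small accessory subunit, had 8.24, 8.26 and 8.35 in stress, against 8.40, 8.33 and 8.44 in control (-0.10 ± 0.06, limma adjusted p = 0.422). Uqcrb differed by -0.08 ± 0.06, and the core proteins Uqcrc2 and Uqcrc1 by -0.08 ± 0.06 and -0.05 ± 0.05.

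The 13 nuclear subunits of complex IV, cytochrome c oxidase, had differences between -0.34 and 0.22, the widest range of the nuclear subunits of any complex, and a median of -0.02. Several of its subunits exist as isoforms of different tissues. Cox7a2l, a relative of Cox7a2 that takes part in joining complexes III and IV (chr17:83501918-83517330), had log2 values of 11.07, 10.999 and 11.28 in stress, against 10.995, 10.78 and 10.93 in control, a difference of 0.22 ± 0.09 (SE; limma adjusted p = 0.271). It was the only member with an unadjusted p under 0.05 that was higher in stress. The lowest stress library lay just above the highest control library.

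Cox7a2, the isoform of most tissues, had 9.16, 9.20 and 9.31 in stress, against 9.34, 9.14 and 9.39 in control (-0.07 ± 0.08). The value of Cox7a2l minus that of Cox7a2 was 1.91, 1.80 and 1.97 in stress, against 1.66, 1.64 and 1.54 in control, so this difference within a library separated the groups, by 0.28. It is not a ratio of the proteins, since the values are not per length. With the skeletal muscle markers as a covariate, the difference of Cox7a2l itself was 0.07 (limma adjusted p = 0.831). These markers were lower in stress too, and whether they have a part in the value of Cox7a2l was not tested.

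Cox6a2, the heart and skeletal muscle isoform of subunit 6a (chr7:128205435-128206387), had 5.12, 5.16 and 4.90 in stress, against 5.09, 5.53 and 5.58 in control, a difference of -0.34 ± 0.14 (SE; limma adjusted p = 0.273). Control replicate 1 lay among the stress libraries. The mean of the 18 skeletal muscle markers, all tested and all with the lower mean in stress, was 8.20, 8.36 and 7.15 in stress, against 8.06, 9.01 and 9.28 in control, which puts the 6 libraries in the same order as Cox6a2. With those markers as a covariate the difference of Cox6a2 was -0.06 (limma adjusted p = 0.860). The marker mean itself differed between the groups, by -0.88, so with 6 libraries the covariate and stress are partly confounded. Whether muscle has a part in the value of Cox6a2 was not tested. Its common counterpart Cox6a1 differed by -0.05 ± 0.07. Cox7a1 and Cox8b, isoforms of the same muscles, had means of 2.09 and 1.68 and were not tested.

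The other isoforms overlapped between groups. Cox4i1 differed by 0.01 ± 0.06 and Cox4i2, an isoform known from lung and for its induction by hypoxia, by -0.04 ± 0.07. Cox6b1 differed by -0.02 ± 0.05, Cox7b by -0.10 ± 0.07 and Cox8a by 0.07 ± 0.06. Cox6b2, the testis isoform, had a mean of 1.60, and Cox7b2 and Cox8c were listed at 0 in every library.

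Ndufa4, named as a complex I subunit and now assigned to complex IV, had 9.29, 9.44 and 9.44 in stress, against 9.41, 9.48 and 9.28 in control, a difference of 0.00 ± 0.07. Its hypoxia-induced relative Ndufa4l2 had 6.84, 6.93 and 7.22 in stress, against 6.70, 8.0 and 7.10 in control. Control replicate 2 stood apart: the difference was -0.27 ± 0.31 (SE) with it and 0.10 without it. The same library had the highest mean of the 11 fibroblast markers, which was 11.46, 11.42 and 11.22 in stress, against 11.47, 12.18 and 11.92 in control. Of the 11, 10 had the lower mean in stress. Control replicate 2 was also highest for the 3 adipocyte markers tested (7.80), the 5 erythroid markers tested (8.22) and the proliferation markers (11.15). Stress replicate 3, lowest in the fibroblast markers, stood at 7.22 for Ndufa4l2, above control replicate 3 at 7.10. Whether any of these markers have a part in the value was not tested.

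**Figure D4:**
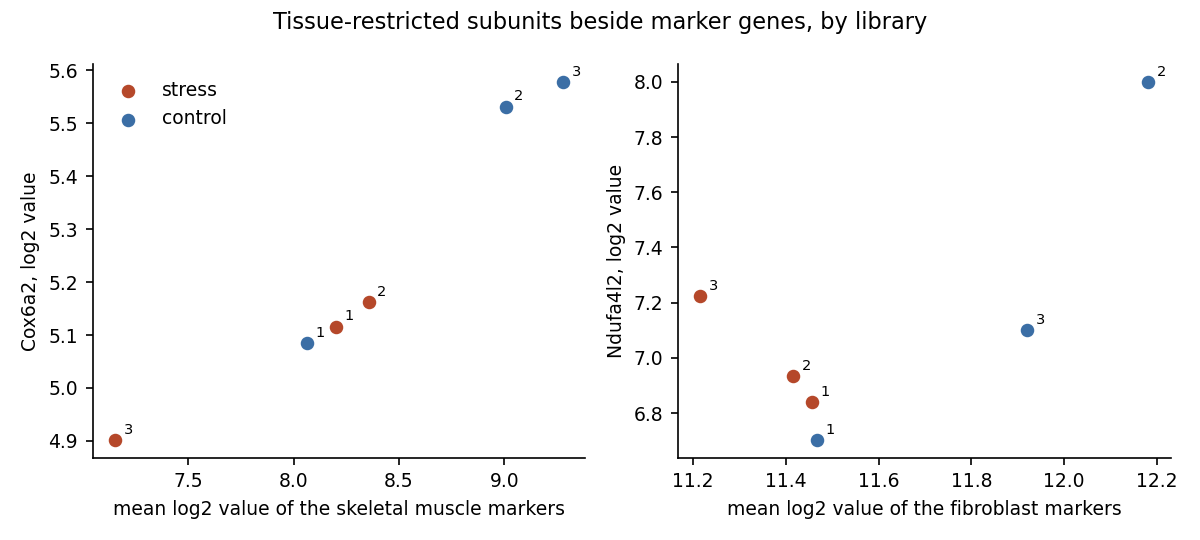
Log2 values of Cox6a2 against the mean of 18 skeletal muscle markers, and of Ndufa4l2 against the mean of 11 fibroblast markers, 1 point per library (numbers are replicates). Cox6a2 puts the libraries in the same order as the muscle markers, with stress replicate 3 lowest at 4.90 and control replicate 3 highest at 5.58, and Ndufa4l2 reaches 8.0 in control replicate 2, where the fibroblast mean is 12.18.

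In complex V 13 of 18 subunits had the lower mean in stress, and 8 of the 18 (44.4%) had groups apart, 7 lower and 1 higher, beside 24.3% of all genes, with 12.3% lower and 12.1% higher. Differences between the parts of the enzyme were not tested. The 4 subunits of the peripheral stalk, which holds the catalytic head in place, were all lower, with a median of -0.09, and the mean over them was 10.69, 10.63 and 10.67 in stress, against 10.81, 10.73 and 10.74 in control, without overlap. The 5 subunits of the catalytic head and central stalk had 2 lower and 3 higher, with a median of 0.00, and their mean overlapped at 11.51, 11.44 and 11.56 in stress, against 11.53, 11.46 and 11.48 in control.

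Atp5f1, subunit b of the peripheral stalk (chr3:105942698-105960099), had log2 values of 11.46, 11.37 and 11.36 in stress, against 11.56, 11.55 and 11.54 in control, a difference of -0.15 ± 0.05 (SE; limma adjusted p = 0.180), the smallest adjusted p of the nuclear members. It shares 192 bases of transcript on the opposite strand with its neighbour Wdr77. Atp5o, the stalk subunit that binds the head, had 10.40, 10.43 and 10.44 in stress, against 10.58, 10.52 and 10.50 in control (-0.11 ± 0.05, adjusted p = 0.290). It shares 287 bases with Donson. Atp5j2, subunit f of the membrane part, had 9.84, 9.84 and 9.77 in stress, against 9.9996, 9.88 and 9.97 in control (-0.14 ± 0.05, adjusted p = 0.267).
In all 3 the stress libraries lay below the control libraries, but they too were picked by their p in the same fit, which favours groups apart. Atp5c1, the rotating gamma subunit of the central stalk, was higher in stress, with 11.49, 11.42 and 11.58 in stress, against 11.41, 11.37 and 11.36 in control (0.12 ± 0.05, adjusted p = 0.328); these groups did not overlap either.

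Among the genes of the proton-carrying c ring, Atp5g1 and Atp5g2 have near-identical copies too. Gm10039 held 15.7% to 17.9% of its sum with Atp5g1 in stress, against 15.2% to 16.99% in control, and the sum differed by -0.13 ± 0.06, without overlap. Gm10175 held 90.98% to 92.3% of its sum with Atp5g2 in stress, against 91.7% to 92.2% in control. For Ndufa12, an accessory subunit of complex I, Gm15920 held 37.0% to 37.4% of the sum in stress, against 34.3% to 38.1% in control. The shares held by the copies of these 3 genes overlapped between groups. Atp5s bears an ATP synthase name without being a structural subunit; it was kept as the names select it and differed by -0.01 ± 0.07.

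**Figure D5:**
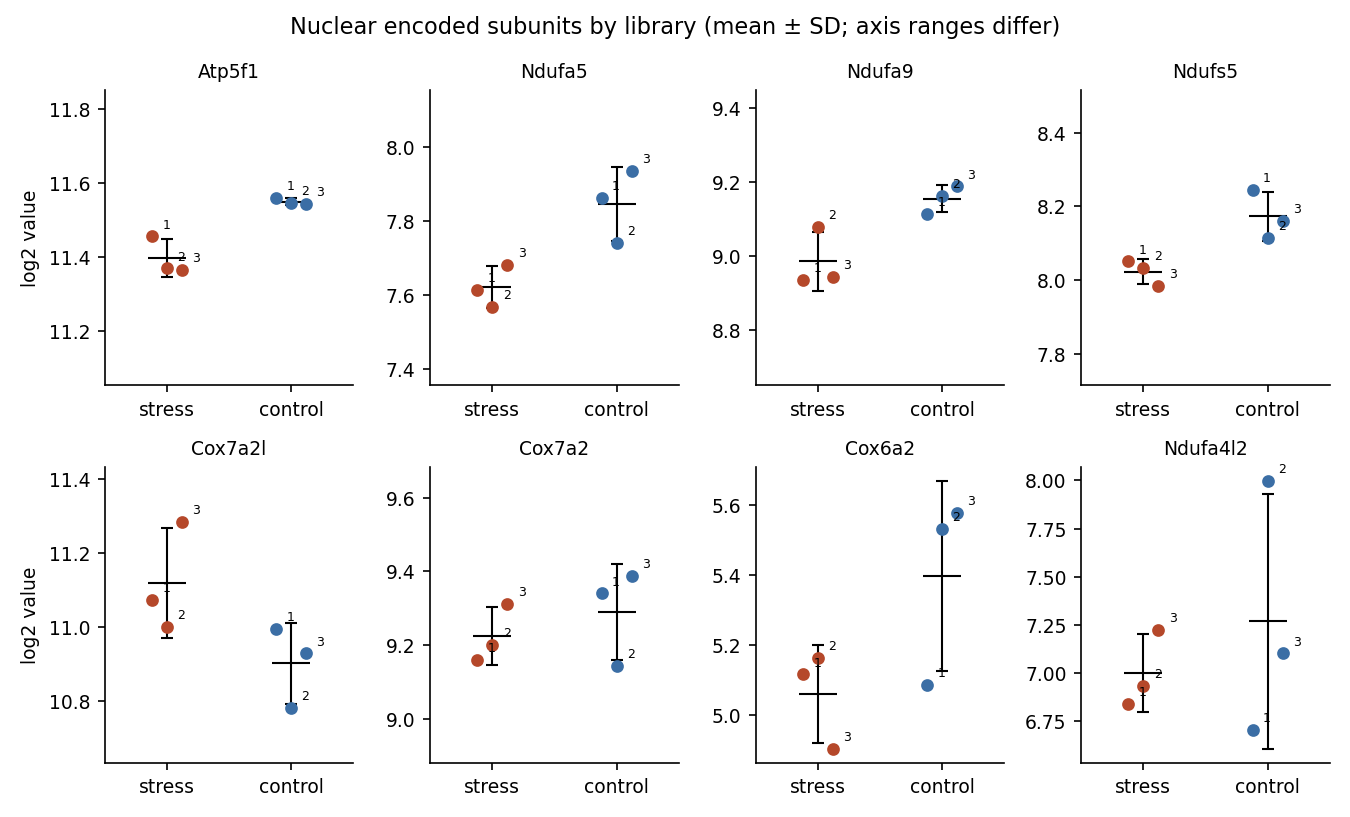
Log2 values of 8 nuclear encoded subunits by library (numbers are replicates; bars are means and whiskers 1 SD, n = 3 each; axis ranges differ). The groups are apart for Atp5f1, Ndufa5, Ndufa9 and Ndufs5, lower in stress, and for Cox7a2l, higher in stress; Cox7a2, Cox6a2 and Ndufa4l2 overlap.

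Nuclear respiratory genes are known to be controlled through promoter elements for NRF1, for GABP, an ETS family factor also called NRF2, for YY1 and for the oestrogen-related receptors. RefSeq promoter windows (GRCm38.p6, 250 bases before to 50 after a start) matched 64 of the 78 nuclear members; 5 had several starts, and a match in any window counted. Both strands were searched. The NRF1 core, GCGCA and GCGC with any 1 base between them, stood in 17 members (26.6%), beside 10.7% of 10773 tested genes and 5.19% of all 27025 genes with a window. The YY1 core AAGATGGC stood in 10 members (15.6%), beside 4.95% and 3.19%, and the receptor element AAGGTCA in 8 (12.5%), beside 3.82% and 5.38%. The ETS core CCGGAAG stood in 16 (25%), beside 18.9% and 9.93%. The core of the hypoxia-inducible factors, ACGTG, stood in 16 (25%), beside 28.3% and 21.8%. None of these letter runs is contained in another, and a match is a description of the sequence only.

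The 10 members with the YY1 letters had a median difference of -0.13, beside -0.02 for the 54 without them. They are Atp5f1, Atp5j, Atp5j2, Ndufa3, Ndufa9, Ndufb8, Ndufc1, Ndufs4, Ndufs6 and Ndufs7, and 9 of them had the lower mean in stress, 4 without overlap. Of the 54 others, 37 had the lower mean and 9 were lower without overlap. Over all genes 49.4% were lower, and 12.3% lower without overlap. For the NRF1 core the medians were -0.07 with it and -0.02 without it. For the receptor element they were -0.055 with it and -0.051 without it, and for the ETS core -0.045 and -0.055. For the core of the hypoxia-inducible factors they lay the other way, at -0.01 with it and -0.06 without it. These splits were made with the values known and were not tested.

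The windows of Ndufa9 and Atp5f1 are shown as examples of the YY1 letters, which begin 30 bases after the start in Ndufa9 and, on the opposite strand, 3 bases before it in Atp5f1. The window of Ndufs5 holds an NRF1 core that begins 98 bases before the start and, on the opposite strand, a receptor element. Each reads 5′ to 3′ on the strand of the gene, with the matches to the NRF1, ETS, YY1 and receptor letters in capitals.
Ndufa9 (chr6:126849095-126849394, minus strand): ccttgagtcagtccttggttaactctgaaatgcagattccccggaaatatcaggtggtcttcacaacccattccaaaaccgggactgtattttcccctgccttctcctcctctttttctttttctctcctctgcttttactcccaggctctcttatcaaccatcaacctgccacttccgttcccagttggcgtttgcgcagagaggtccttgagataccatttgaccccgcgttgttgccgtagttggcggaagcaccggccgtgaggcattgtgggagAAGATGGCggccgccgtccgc
Atp5f1 (chr3:105959214-105959513, minus strand): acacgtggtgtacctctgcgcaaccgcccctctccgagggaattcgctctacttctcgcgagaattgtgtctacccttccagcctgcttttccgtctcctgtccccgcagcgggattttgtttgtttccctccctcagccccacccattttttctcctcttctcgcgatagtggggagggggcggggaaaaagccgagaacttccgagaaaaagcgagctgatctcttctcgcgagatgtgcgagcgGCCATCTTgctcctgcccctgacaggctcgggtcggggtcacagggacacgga
Ndufs5 (chr4:123718137-123718436, minus strand): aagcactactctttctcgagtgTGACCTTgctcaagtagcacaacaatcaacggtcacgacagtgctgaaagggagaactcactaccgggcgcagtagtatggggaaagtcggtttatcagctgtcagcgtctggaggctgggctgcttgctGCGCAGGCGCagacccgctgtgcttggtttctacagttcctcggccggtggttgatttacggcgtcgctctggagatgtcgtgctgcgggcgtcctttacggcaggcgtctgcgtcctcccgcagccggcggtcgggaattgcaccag

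The genes that build, supply and regulate the chain had 0 limma calls too in each of 7 lists, beside 0.0355% of all genes. At an unadjusted p under 0.05 there were 1 to 5 members per list, or 6.25% to 38.5%, beside 17.4% of all genes. Of 46 assembly factors, 24 had the lower mean in stress, with a median of 0.00; Ndufaf4, a complex I assembly factor, stood at 7.96, 8.18 and 8.0 in stress, against 8.31, 8.24 and 8.26 in control (-0.22 ± 0.07, limma adjusted p = 0.208), and Ndufaf3, its partner, was higher by 0.17 ± 0.06 (adjusted p = 0.199). Of 23 genes for electron carriers and nucleotide exchange, 12 were lower. They include Cycs, the cytochrome c that carries electrons to complex IV, with 9.92, 9.99 and 9.98 in stress, against 10.25, 10.18 and 10.20 in control (-0.24 ± 0.05, adjusted p = 0.111), and Coq10b, a coenzyme Q-binding protein (-0.24 ± 0.08). The groups of both genes were apart.

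Genes that express mitochondrial DNA had 21 of 37 lower, with a median of 0.00; Tbrg4, which stabilises mitochondrial mRNAs, differed by -0.15 ± 0.06 and Twnk, the mitochondrial helicase, by 0.13 ± 0.05. Of 14 regulators of mitochondrial biogenesis 5 were lower. Pprc1, a coactivator related to PGC-1, had 10.88, 11.05 and 10.90 in stress, against 11.39, 11.26 and 11.36 in control (-0.39 ± 0.06, limma adjusted p = 0.0947), while Gabpa, the DNA-binding subunit of GABP, was higher by 0.16 ± 0.05 (adjusted p = 0.206). Both had groups apart, in opposite directions.

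In the citric acid cycle 13 of 16 genes had the lower mean, with a median of -0.07; Idh3a, a subunit of isocitrate dehydrogenase, had 10.20, 10.23 and 10.18 in stress, against 10.38, 10.44 and 10.37 in control (-0.19 ± 0.05, limma adjusted p = 0.139). Of 20 genes for import and cristae 15 were lower; Tomm40, the import channel, differed by -0.17 ± 0.05 and Mfn1, a fusion protein, by 0.25 ± 0.06. The list of mitochondrial targets of hypoxia-inducible factors and mitophagy genes was the other way round, with 8 of 13 higher and a median of 0.07. Pdk1, a kinase that restrains pyruvate oxidation, had 10.44, 10.45 and 10.57 in stress, against 9.93, 10.20 and 10.03 in control (0.43 ± 0.08, adjusted p = 0.104), and Mxi1 differed by 0.43 ± 0.12 (adjusted p = 0.154).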

How the data were processed

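The mRNA table was deposited by the authors as normalized log2 values (base not stated, taken as 2), although named as raw counts, so the fit used limma on these values and no count model. Per the submitters' processing notes, bcl2fastq, kallisto 0.46.1 and the build mm10 were used; the transform, the annotation and the strand use are not given in the sources used here. Low values vary little between libraries, which can understate fold changes of weak genes, and the depth is unknown. From 35453 rows, 12658 listed at 0 throughout and 26 named by a date were left out. limma 3.58.1 (R 4.3.3; variance trend, robust, two-sided, no covariates) tested stress against control, 3 libraries each, over 14098 genes with a mean of at least 4, with Benjamini-Hochberg adjustment and a threshold of 0.05. An exact permutation test of 3 against 3 cannot go below p = 0.1. The members and lists were chosen with earlier results of these data known. Named with values were all mitochondrial members, complex II, the isoform families, the 4 nuclear members per complex with the smallest p, and the 2 per pathway list, 1 of which is not reported here; other genes were named after their values were seen. Copies were transcripts of other genes in GENCODE M21 (GRCm38) with at least 97% identity over 150 bases (blastn 2.17.0). Each of 9 members whose copy was a pseudogene or processed transcript with a mean of at least 4 was summed with it on the linear scale and refitted; this was chosen after seeing the data. The miRNA table was not used. The fit was tested on simulated data.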

Additional observations from a re-analysis of the deposited data

How the results depend on the processing

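Of the 40 members named by the rules given above, 24 kept the direction of their difference under all 16 alternatives run. Of the same 40, 1, mt-Nd3, passed the threshold under any. Ndufv3, Atp5g1, Atp5g2, Ndufa12 and Atp5s are not among the 40. The number of members called was 1 with a mean of at least 6 (mt-Nd3, limma adjusted p = 0.0499) and 1 with array weights (0.0488), and 0 under the others, with adjusted p of mt-Nd3 up to 0.431 with the muscle markers as a covariate and 0.648 when summed with its copy. The number of genes called, 5, became 11 with a mean of at least 6, 8 with quantile normalization, 45 with array weights, 0 with the muscle covariate, and 0 to 5 with single libraries left out (0 without stress replicate 1, stress replicate 3, control replicate 1 or control replicate 3). The labels do not pair the groups, and same-numbered libraries did not deviate together (correlations of -0.079, 0.0815 and -0.0183); with the replicate number as a block, 0 genes were called and the adjusted p of mt-Nd3 was 0.178. The median difference of the members stayed between -0.0867 (muscle covariate) and -0.026 (without stress replicate 2). The mitochondrial minus nuclear difference turned to 0.0618 without the 7 mitochondrial subunits of complex I, and the median of complex II ranged from -0.0283 (without control replicate 2) to 0.0188 (without stress replicate 2); the causes were not tested. The limits are the unknown depth, 3 libraries per group and reads shared between genes and copies.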

Other observations

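Markers of other cells of the tumour also had uneven directions, with 0 members called in each list (limma; 0 to 7 per list at an unadjusted p under 0.05, beside 17.4% of all genes). Of 9 endothelial markers all had the lower mean in stress, 7 (77.8%) without overlap, beside 12.3% of all genes. Of 9 adipocyte markers 3 were tested, without Adipoq, Plin1, Cidec, Lep, Retn and Ucp1, and all 3 had the lower mean. Of 11 neutrophil markers 7 were tested, without Ly6g, Mpo, Elane and Camp. Of these 7, 6 had the higher mean in stress, with list means of 7.72, 7.47 and 8.07 in stress, against 7.26, 7.15 and 7.30 in control. Among the rest, 4 of 9 macrophage markers, 3 of 11 T and NK cell markers, 0 of 3 B and plasma cell markers, 2 of 5 erythroid markers and 3 of 8 epithelial markers had the higher mean. The B and plasma cell list and the erythroid list each held 7 markers, and the others in them were not tested.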
